A study of Arabidopsis thaliana with 3 samples.

Results

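The mitochondrial genome transcripts described here are the 146 loci whose identifiers start with ATMG, the prefix of the Arabidopsis thaliana mitochondrial genome, among 33602 loci in the deposited expression table. They were chosen by that prefix alone, with no measured value. The material was sperm cells, the male gametes carried inside the pollen grain, which had been sorted by fluorescence from plants of ecotype Col-0 with wild-type genotype. The total RNA went into Smart-seq2 libraries, in which full-length cDNA is copied from very small samples starting at the poly(A) tail. The labels list 3 sperm libraries and the table holds only their mean for each locus, so errors cannot be given and differences could not be set against the spread between libraries. Levels are in TPM, the length-corrected share of a locus among all transcripts, scaled to 1000000 per column.

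Plant mitochondria keep a genome of their own that encodes ribosomal and transfer RNAs and some subunits of the respiratory complexes, of the ATP synthase and of the mitochondrial ribosome. The remaining subunits, and nearly all proteins that copy, transcribe, splice and edit this genome, are encoded in the nucleus and imported. In flowering plants mitochondria are usually inherited from the egg cell. Mature messenger RNA of plant mitochondria mostly carries no poly(A) tail, and a tail there usually marks RNA for breakdown. How far a library started from poly(A) tails represents mitochondrial RNA was not tested.

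The RefSeq reference table for assembly TAIR10.1 holds 33 protein-coding mitochondrial entries, 9 of them for subunits of respiratory complex I, but under tags of its own. It pairs none of the 146 ATMG identifiers with a name (0 of 146), and the expression table gives identifiers only. The mitochondrial loci are therefore given by identifier, with no gene name or role.

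Mitochondrial RNA in the sperm column came almost wholly from 3 loci. Ribosomal, transfer and messenger RNA are not told apart in these values, so this says nothing about protein-coding genes alone. The 146 loci summed to 2777 TPM, or 0.278% of the column total. ATMG00020 was at 1220 TPM, ATMG00030 at 1077 TPM and ATMG01390 at 322 TPM. Together they held 94.29% of the mitochondrial sum, with 43.9% in ATMG00020, 38.8% in ATMG00030 and 11.6% in ATMG01390. These were also the only mitochondrial loci at or above 100 TPM, at places 74, 83 and 252 among all 33602 loci. ATMG00020 exceeded ATMG00030 by a factor of 1.13 and ATMG00030 exceeded ATMG01390 by a factor of 3.35. The widest step among the 12 highest mitochondrial loci lay below ATMG01390, which exceeded the next locus, ATMG01380, by a factor of 10.7.

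Below that step the levels fell off gradually. ATMG01380 was at 30.2 TPM, at place 1731 of all loci, and ATMG00516 at 18.8 TPM. ATMG01190 and ATMG01080 lay close together at 13.0 TPM and 12.8 TPM. These 4 loci completed the 7 mitochondrial loci at or above 10 TPM, and the first 7 held 96.98% of the mitochondrial sum. From here on, neighbouring loci in the order differed by less than a factor of 2, down to the twelfth. Whether such neighbours differ beyond the spread between libraries cannot be said from a column of means.

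Another 20 loci lay between 1 TPM and 10 TPM. The highest of them were ATMG01120 at 8.25 TPM, ATMG00640 at 7.68 TPM, ATMG00160 at 6.35 TPM and ATMG01360 at 5.96 TPM. ATMG00650 was at 4.99 TPM, ATMG01000 at 4.37 TPM, ATMG00513 at 4.32 TPM, ATMG00070 at 4.09 TPM and ATMG01320 at 3.92 TPM. The group then ran from ATMG00980 at 3.47 TPM, ATMG00580 at 2.67 TPM, ATMG00180 at 2.41 TPM and ATMG00080 at 2.09 TPM to its lowest member, ATMG00480, at 1.04 TPM. In between stood ATMG00960 at 1.85 TPM, ATMG00510 at 1.68 TPM, ATMG01350 at 1.66 TPM, ATMG00060 at 1.57 TPM, ATMG01130 at 1.45 TPM and ATMG00090 at 1.29 TPM. Without the 3 highest loci, the other 143 summed to 158.6 TPM, or 0.0159% of the column total.

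**Figure D1:**
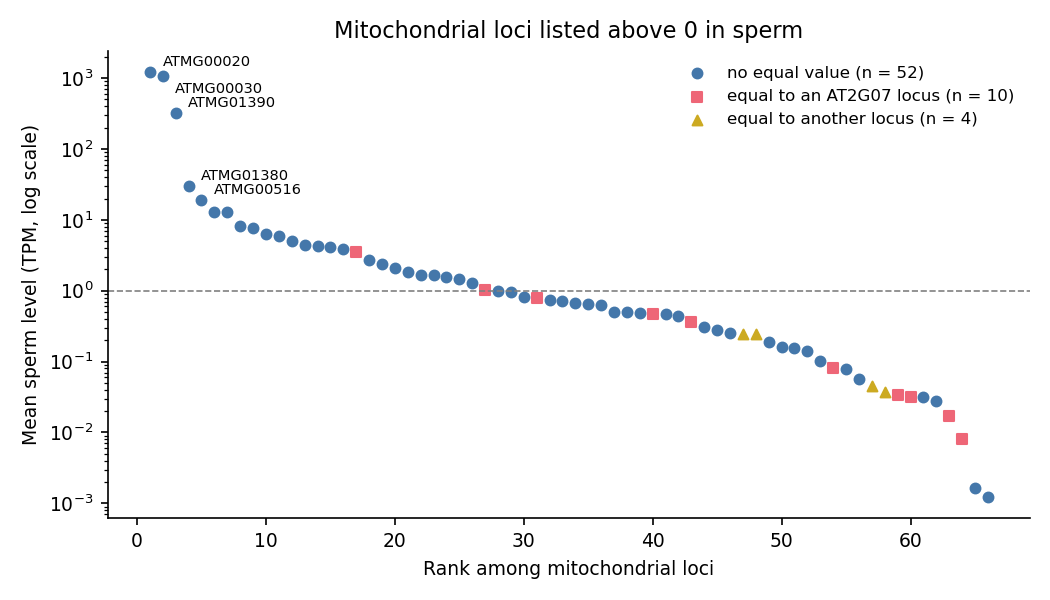
Mean sperm level in TPM (log scale) of the 66 mitochondrial loci listed above 0, ordered from highest to lowest. Squares mark the 10 loci whose value equals that of a nuclear AT2G07 locus in every digit, triangles the 4 loci equal to some other locus, and the dashed line 1 TPM, which 27 loci reach. The 3 highest loci stand apart from the rest.

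In all, 27 of the 146 mitochondrial loci (18.5%) were at or above 1 TPM, against 21.7% of all loci. Of the rest, 39 had a value above 0 that was under 1 TPM. The remaining 80 (54.8%) were listed at 0, against 43.1% of all loci. The share above 0 was thus 45.2% of mitochondrial loci and 56.9% of all loci. Besides those at 0, mitochondrial loci were more frequent in the highest class, with 1.37% against 0.265% at 1000 TPM and over, which rests on 2 loci. At or above 100 TPM the shares were 2.05% and 2.29%. Mitochondrial loci were less frequent from 0.01 TPM to 0.1 TPM, with 6.85% against 16.2%. The same held from 10 TPM to 100 TPM, with 2.74% against 7.21%, and from 100 TPM to 1000 TPM, with 0.685% against 2.02%. Across the range from 0.1 TPM to 10 TPM the shares were close, with 17.8% against 16.6% from 0.1 to 1 TPM and 13.7% against 12.2% from 1 to 10 TPM. Among loci above 0 the median was 0.692 TPM for mitochondrial loci and 0.352 TPM for all loci. Sequencing depth cannot be read from TPM and is unknown, so a value of 0 does not show that a transcript was absent.

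**Figure D2:**
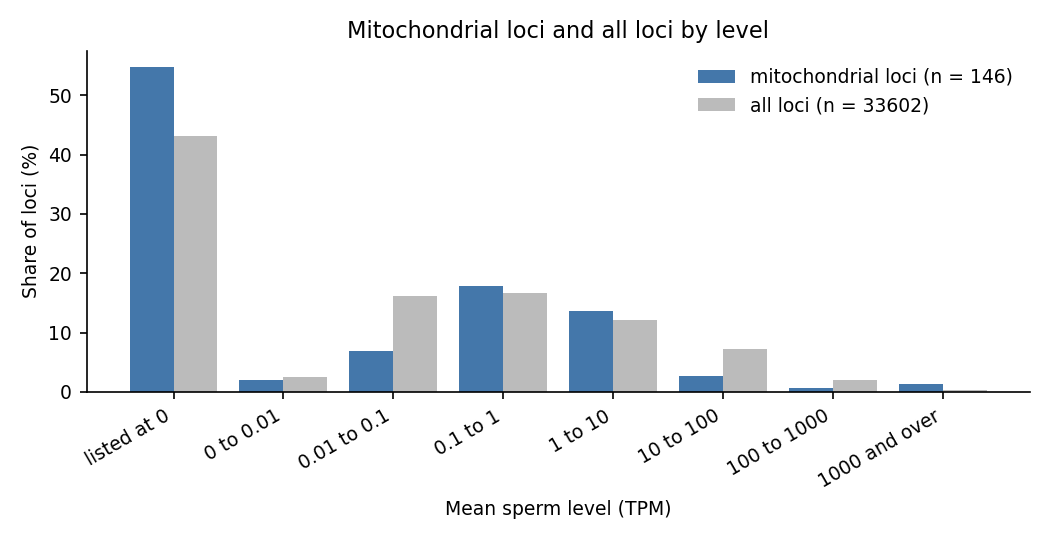
Share of loci (%) in each class of mean sperm level (TPM), for the 146 mitochondrial loci on the left and all 33602 loci on the right of each pair. The mitochondrial loci are more often listed at 0 (54.8% against 43.1%) and less often between 0.01 and 0.1 TPM (6.85% against 16.2%) and between 10 and 100 TPM (2.74% against 7.21%).

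Just under 1 TPM stood ATMG00110 at 0.979 TPM, ATMG01275 at 0.949 TPM, ATMG00220 at 0.815 TPM and ATMG00570 at 0.750 TPM. ATMG01170 was at 0.723 TPM, ATMG00285 at 0.662 TPM, ATMG00730 at 0.642 TPM and ATMG00410 at 0.632 TPM. ATMG00560 was at 0.496 TPM, ATMG00270 at 0.488 TPM, ATMG00520 at 0.433 TPM, ATMG00830 at 0.283 TPM and ATMG00290 at 0.0774 TPM. The levels went on to 0.0016 TPM for ATMG00990 and 0.0012 TPM for ATMG01270, the lowest above 0. ATMG00210 and ATMG00665 were listed at 0. Whether reads of such low loci were counted at the chromosome 2 insertion described below was not tested. The loci listed at 0 were spread over the identifier series. The longest unbroken stretch of identifiers at 0 held 6 loci, from ATMG00340 to ATMG00390, and the next held 5 loci, from ATMG01220 to ATMG01260.

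Some mitochondrial loci had exactly the value of a nuclear locus. Chromosome 2 of Col-0 carries a large, nearly complete insertion of mitochondrial DNA close to its centromere, and RNA from either place can give the same reads. Of the 66 mitochondrial loci above 0, 14 (21.2%) had a value equal in every printed digit to that of another locus, against 5.95% of all loci above 0. Of the 56 chloroplast loci above 0, 29 (51.8%) had such a value. Whether the loci equal to these chloroplast loci were nuclear or chloroplast was not examined. For 10 of the 14 mitochondrial loci the equal locus was a chromosome 2 locus with the prefix AT2G07, each mitochondrial locus pairing with a different one. As background, software that divides reads evenly between identical transcripts gives them equal values. Loci can also share a low value by coincidence, and the sequences themselves were not compared.

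ATMG00980 and AT2G07675 were both at 3.47 TPM, and ATMG00480 and AT2G07707 were both at 1.04 TPM. These were the only pairs at or above 1 TPM. The reference lists 3 of the nuclear partners as transfer RNA genes. They were AT2G07743, equal to ATMG01070 at 0.778 TPM, AT2G07752, equal to ATMG00800 at 0.469 TPM, and AT2G07794, equal to ATMG00460 at 0.361 TPM. ATMG01070 also shared its value with AT3G11395, a transfer RNA gene on chromosome 3. ATMG00900 was equal to AT2G07771 at 0.0818 TPM, and the reference names the nuclear locus ABCI5, a member of the ATP-binding cassette family. The other pairs with chromosome 2 lay lower, with ATMG01210 and AT2G07826 at 0.0336 TPM, ATMG00200 and AT2G07724 at 0.0313 TPM, ATMG01050 and AT2G07672 at 0.0169 TPM and ATMG00590 and AT2G07718 at 0.0082 TPM.

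The other 4 equal values were of other kinds. ATMG00330 and ATMG00780 shared a value of 0.243 TPM within the mitochondrial genome. ATMG00860 was equal to AT2G20350 at 0.0448 TPM and ATMG00140 to AT5G04080 at 0.0368 TPM, nuclear loci outside the AT2G07 series. None of the 7 mitochondrial loci at or above 10 TPM, which held nearly all of the sum, had an equal value elsewhere. Copies that are not identical can share reads without having equal values, and such sharing was not tested.

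In the gene order of the reference, the 10 paired nuclear loci lay within a stretch of 91 listed loci on chromosome 2, counted from the first to the last of them. Of these 91 loci, 11 (12.1%) were at or above 1 TPM, against 21.7% of all loci. The number above 0 was 41, and the stretch summed to 120.2 TPM. The highest was AT2G07671 at 70.2 TPM, followed by AT2G07751 at 18.7 TPM and AT2G07754, a transfer RNA gene, at 6.18 TPM. None of these 3 had a mitochondrial locus of equal value. The 3 loci next beyond one end of the stretch were AT2G07725 at 3.24 TPM, AT2G07726 at 7.69 TPM and AT2G07727 at 19.9 TPM, so that end is only the last of the equal values. On the other side the nearest locus, AT2G07742, was at 0.385 TPM, and the further 19 shown there were at 0 or below 0.1 TPM. AT2G07671 was above every mitochondrial locus except the 3 highest. The 143 mitochondrial loci other than those 3 summed to 158.6 TPM, so the sum listed for the nuclear stretch was smaller but of the same order. Whether its reads came from the nucleus or from mitochondria was not tested.

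**Figure D3:**
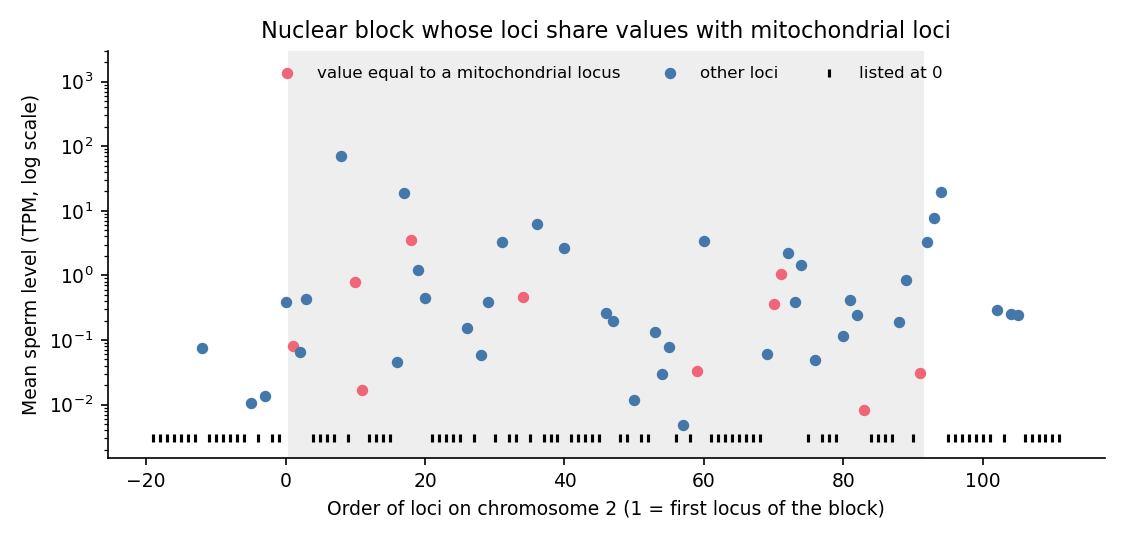
Mean sperm level in TPM (log scale) of loci on chromosome 2, in gene order, with the 91 loci of the stretch shaded and 20 loci shown on each side. Red points are the 10 loci whose value equals that of a mitochondrial locus, blue points other loci, and ticks at the bottom loci listed at 0. AT2G07671, at 70.2 TPM, is the highest point of the stretch.

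The means bear some trace of the libraries behind them. If each library's TPM carried 6 significant digits, the sum of 3 libraries can hold more digits than that only where at least 2 libraries were above 0. Of the 66 mitochondrial loci above 0, 26 (39.4%) had such digits, against 44.5% of all loci above 0. Among the 20 mitochondrial loci from 1 TPM to 10 TPM they numbered 12 (60%), against 51.7% of all loci at these levels. For 2 loci at or above 1 TPM, ATMG01130 and ATMG00480, the digits also require a library below 1 TPM. Where such digits are missing, 1 library and several cannot be told apart.

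None of the 7 loci at or above 10 TPM had digits that need a second library, against 37.4% of all loci at these levels. The summed libraries were 3660.63 TPM for ATMG00020, 3229.51 TPM for ATMG00030 and 965.468 TPM for ATMG01390. None of these sums has more than 6 digits. How many of the 3 libraries held these transcripts cannot be read from the means.

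Marker levels are given for 9 genes of each of the cell types in a pollen grain. These genes were chosen with earlier results of these data known, so they are no independent check of the sort. Of all loci, 21.7% were at or above 1 TPM. All 9 male germline markers were at or above 1 TPM, from 71.8 TPM for GEX2 to 16145 TPM for PCR11, with a sum of 35490 TPM. Of 9 markers of the vegetative cell, which encloses the sperm and has mitochondria too, 7 were at or above 1 TPM, up to 127 TPM for AGP6, and the list summed to 363.6 TPM. VEX1 was the lowest at 0.035 TPM and no marker was listed at 0. The part of vegetative cell RNA in the mitochondrial values was not tested. Fewer cells of a type and less RNA per cell cannot be told apart in these libraries. The chloroplast genome, the other organelle genome, gave 78.57 TPM over 133 loci. Of these, 6 (4.51%) were at or above 1 TPM and 56 (42.1%) above 0, against 21.7% and 56.9% of all loci.

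Nuclear genes for the respiratory complexes were unevenly represented. The median over 26 such genes that the reference names was 2.80 TPM, and 15 of them (57.7%) reached 1 TPM, against 27.7% of the 10654 nuclear loci with a symbol and 21.7% of all loci. The nuclear lists were chosen with earlier results of these data known, so their shares are not independent of the values. Cytochrome c, which carries electrons between complexes III and IV, came mainly from CYTC-2 at 805 TPM, with CYTC-1 at 4.44 TPM. All 4 named genes of the ATP synthase reached 1 TPM. MGP1, named for a defect of the male gametophyte, was at 167 TPM, the gamma subunit gene ATP3 at 46.3 TPM, ATPQ, the D chain gene, at 14.1 TPM and the delta subunit gene ATP5 at 1.16 TPM. Of 5 further listed loci that the reference leaves unnamed, 2 reached 1 TPM, AT1G51650 at 135 TPM and AT5G47030 at 4.76 TPM. Below 1 TPM were AT5G08680 at 0.598 TPM, AT5G08670 at 0.363 TPM and AT5G08690 at 0.0499 TPM.

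Succinate dehydrogenase, or complex II, for which the reference lists no mitochondrial entry other than a pseudogene, had 5 of 7 genes at or above 1 TPM. SDH4 was at 62.5 TPM, SDH1-1 at 12.6 TPM, SDH2-2 at 12.5 TPM and SDH2-1 at 12.3 TPM, while SDH1-2 was at 0.0236 TPM and SDH2-3 was listed at 0. The complex I list of 14 loci had 5 at or above 1 TPM. The highest of them, AT5G11770 at 492 TPM and AT3G08610 at 52.7 TPM, have no name in the reference. The other 3, among 9 named genes, were the gamma carbonic anhydrase genes GAMMA CA3 at 32.6 TPM and GAMMA CA2 at 14.1 TPM and the related GAMMA CAL2 at 1.09 TPM. CIB22, a complex I subunit gene outside the list, was at 314 TPM. CI51, of the NADH-binding arm, was at 0.505 TPM, and the lowest were GAMMA CAL1 at 0.0721 TPM and GAMMA CA1 at 0.0266 TPM. MPPBETA, a processing peptidase subunit bound to complex III, was at 4.94 TPM and MPPalpha (AT3G16480) at 0.0088 TPM. AT1G51980, listed for the same alpha subunit but unnamed in the reference, was at 6.61 TPM. The complex III list also holds 7 loci that the reference leaves unnamed, of which 4 reached 1 TPM, AT5G13440 at 38.1 TPM, AT5G25450 at 30.4 TPM, AT3G27240 at 12.4 TPM and AT1G51980 at 6.61 TPM.

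Complex IV cannot be described from named genes, since only 2 of its 9 listed loci have a name in the reference. COX6B was at 0.0116 TPM and COX17, a copper chaperone gene, was listed at 0. Of the 7 without a name, 6 were at or above 1 TPM. The highest were AT4G37830 at 179 TPM, AT2G47380 at 132 TPM, AT1G80230 at 58.9 TPM and AT4G28060 at 25.9 TPM. Lowest of the unnamed loci was AT3G15640 at 0.0323 TPM. Counted with all loci that the reference leaves unnamed, 29 of 50 respiratory loci were at or above 1 TPM. The alternative oxidases, which bypass complexes III and IV, had 1 of 5 genes at or above 1 TPM, AOX1A at 2.41 TPM. Of all loci 21.7% reached that level, and of nuclear loci with a symbol 27.7%. AOX1D was at 0.374 TPM, AOX1B at 0.0936 TPM, AOX1C at 0.0235 TPM and AOX2 at 0.0162 TPM.

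Of 24 named nuclear genes that keep, copy and read the mitochondrial genome, 8 (33.3%) reached 1 TPM, against 27.7% of nuclear loci with a symbol, a share near that background. The median of these 24 was 0.118 TPM. Counted with the listed loci that the reference leaves unnamed, 8 of 30 reached 1 TPM. Of the 14 for DNA and RNA upkeep, 5 passed. They were RAD52-1, also called ODB1, an organellar DNA-binding protein gene, at 56.3 TPM, the TWINKLE helicase homologue AT1G30680 at 8.63 TPM and DPD1 at 6.36 TPM. The reference gives DPD1 as defective in pollen organelle DNA degradation, and it encodes a nuclease. ATWHY2, a single-stranded DNA-binding protein gene, was at 1.58 TPM and MSH1, which limits recombination between repeats, at 1.41 TPM. The organellar DNA polymerase genes were at 0.108 TPM for POLGAMMA1 and listed at 0 for POLGAMMA2. MGP3, the gene of a mitochondrial RNA polymerase, was listed at 0. AT5G15700, listed for another organellar RNA polymerase but unnamed in the reference, was at 0.358 TPM.

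Of 10 named genes for splicing and editing of mitochondrial RNA, 3 were at or above 1 TPM, against 27.7% of nuclear loci with a symbol. The editing factor gene MORF3 was at 5.86 TPM and the splicing factor genes OTP43 and ABO5 at 5.58 TPM and 1.10 TPM. The maturase gene nMAT1 was at 0.919 TPM, and RIP1 (MORF8), MORF1 and RUG3 were listed at 0. Loci of a lower level are more easily missed at unknown depth, and the difference between the lists was not tested.

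**Figure D4:**
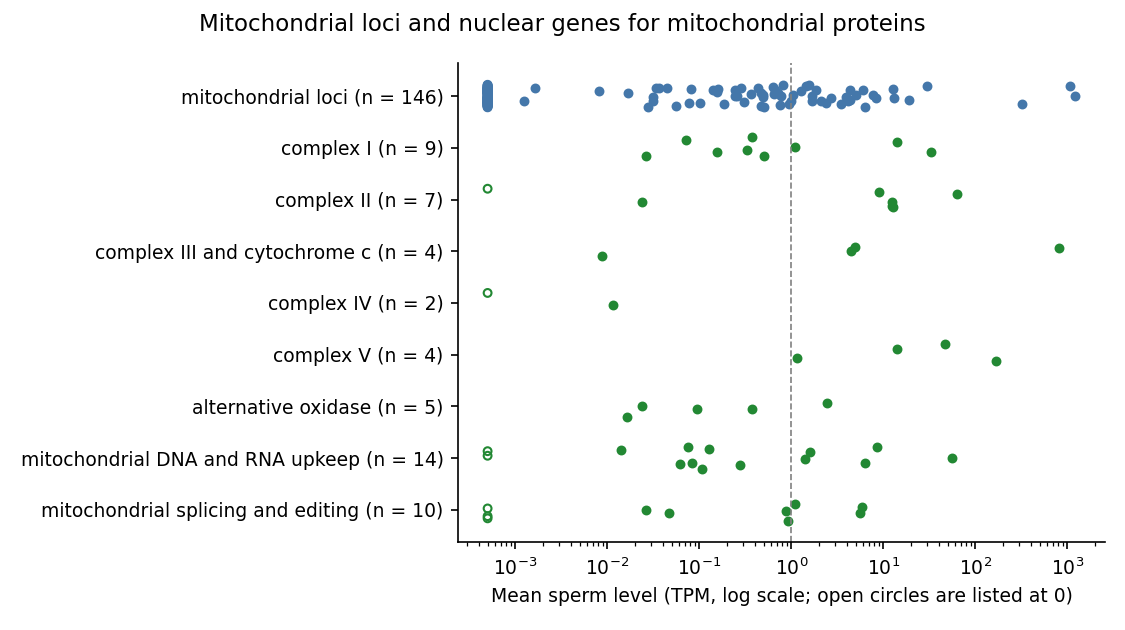
Mean sperm level in TPM (log scale) of the 146 mitochondrial loci (top row) and of the nuclear genes named by the reference in 8 lists (complexes I to V, alternative oxidase, DNA and RNA upkeep, splicing and editing; no cell type markers), 1 point per locus, with open circles at the left edge for loci listed at 0, which overlap for the 80 such mitochondrial loci, and a dashed line at 1 TPM. The 3 highest mitochondrial loci lie from 322 to 1220 TPM, and CYTC-2, at 805 TPM, is the highest nuclear gene shown.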

How the data were processed

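The labels describe 3 Smart-seq2 libraries of sorted sperm cells and do not say whether plants or sorts were separate. The values were deposited as TPM, a length-corrected unit. Per the submitters' processing notes, kallisto 0.43.1, STAR 2.5.2a, Trim Galore 0.4.1, bedtools, SAMtools and the TAIR10 build were used, in no stated role. Which annotation was quantified is not known here. The sperm column was read as the authors' mean of 3 libraries, because 3 times each of 2424 values from 10 to 100 TPM was a whole multiple of 0.00001 TPM, within 0.03 of a step, for 100% of them, against 33.4% without multiplication. The other 13 value columns match no sample described here and were not used.

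Levels, counts and shares were computed with Python 3.11.15 and pandas 2.3.3, with no test, since there is 1 column of means. A locus was counted at or above 1 TPM. Gene names came from a RefSeq table (TAIR10.1), which held 32835 of 33602 loci. It was used for names, gene types and gene order, and for the groups of nuclear loci formed from its symbols and synonyms. Shares and medians of named genes leave out nuclear list loci whose name it does not hold. Such loci are given by identifier and are counted apart or where stated. The mitochondrial loci were set by prefix alone. The lists of genes, mitochondrial and nuclear, and the markers were chosen with earlier results of these data known. The equal values and the chromosome 2 stretch were looked for after the values were seen. The naming rule took mitochondrial loci of the functional lists, those from 10 TPM on, the 5 highest others and nuclear partners. In each nuclear list it took the 4 highest and 2 lowest where present. Further loci were named after their values were seen. The planned classes of mitochondrial genes and the comparison of proteins were not run, because neither names nor sequences for these loci were used here.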

Additional observations from a re-analysis of the deposited data

How the results depend on the processing

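With 1 column of means, the spread between libraries cannot be shown, and leaving out each replicate was not run. No paired analysis was possible because there is 1 group and no value per library. Of 18 alternatives, 10 stayed within 1.5 times the reported value. The 27 mitochondrial loci at or above 1 TPM became 11 at a threshold of 5 TPM and 53 at 0.1 TPM, while 12.7% and 38.2% of all loci passed those thresholds. Scaling without the 10 highest transcripts multiplies every other level by 1.83 and gave a mitochondrial sum of 5086 TPM. The sum was 1557 TPM without the highest locus and 158.6 TPM without the 3 highest. Equal values with AT2G07 loci numbered 5 when restricted to 0.1 TPM and over. At 5 TPM, 5 in place of 8 DNA and RNA genes passed, and with unnamed loci 29 respiratory loci did in place of 15. These alternatives move by their own construction. The alternatives by protein identity, and without ribosomal and transfer RNA loci, were not run.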

Other observations

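A wider group was formed from the reference table after its values were seen. It holds the 75 nuclear loci whose symbol or synonym contains the word mitochondria or a form of it. Of these, 22 (29.3%) were at or above 1 TPM, against 27.7% of the 10654 nuclear loci with a symbol, and 12 were listed at 0. The highest was TOM5, a subunit of the import complex of the outer membrane, at 427 TPM, followed by CIB22, a complex I subunit, at 314 TPM. ELM1, named for elongated mitochondria and acting in their division, was at 43.1 TPM and the pyruvate carrier gene AT5G20090 (MPC1) at 37.8 TPM. RPS14, which the reference names as mitochondrial ribosomal protein S14, was at 10.3 TPM, and mtHsc70-1, a chaperone gene, at 10.3 TPM.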
